A study of Mus musculus with 8 samples.

Results

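A set of 8 genes of the hypoxia response and of blood vessel growth, Hif1a, Epas1, Arnt, Vegfa, Vegfc, Edn2, Pgf and Angpt2, was followed in the open chromatin of mouse granulosa cells. Each was chosen by name, and its window was the gene body in assembly GRCm38 with 50 kb on either side. The peak lists of 8 libraries were merged into 98245 regions, of which 110 lay in the 8 windows, 45 of them touching a gene body. A library is said to hold a region if its list has a peak there. A merged region counted where any of it reached into a window, so that at the outer edge of 2 windows (Hif1a and Pgf) some libraries' own peaks lay just past the 50 kb limit. Of the 110 regions, 30 were held by all 8 libraries, beside 37.9% of all regions in the genome, and 19 were held by 1 library, which was WT replicate 2 for 13 of them.

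Granulosa cells line the ovarian follicle, and their accessible DNA was mapped by ATAC-seq, in which the transposase Tn5 cuts and tags open chromatin. Mice were 21 days old and had 5 IU of eCG, the horse gonadotropin PMSG that makes follicles grow. After 46 h they were killed, or had 5 IU of hCG, the human placental gonadotropin that acts on the LH receptor, and were killed 6 h later. The LH experiment used wild-type F1 mice (CBA x C57BL/6), with 2 libraries titled hCG, taken after eCG and hCG, and 2 titled PMSG, taken after eCG alone. The PR experiment used the strain C.129S7(B6)-Pgrtm1Bwo/OmcJ, with 2 wild-type (WT) and 2 progesterone receptor knockout (KO) libraries, all placed after eCG and hCG by the design text. Each library pooled the cells of 2 to 3 mice, collected by puncturing ovaries. The time tags contradict the titles, since the libraries titled hCG are tagged 0 h and those titled PMSG 6 h. The source names go with the titles in the LH experiment, so the titles were followed. The 4 PR libraries are tagged 6 h and carry a pre-ovulatory source name.

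HIF-1α (Hif1a) and HIF-2α (Epas1) are transcription factor subunits that are degraded when oxygen is plentiful and that bind DNA together with ARNT. The complex binds a short core, ACGTG, in genes for glycolysis and vessel growth, Vegfa among them. VEGF-A, placental growth factor (Pgf) and VEGF-C (Vegfc) are related ligands of receptors on blood and lymphatic vessels, angiopoietin-2 (Angpt2) loosens the contact between vessel cells and their support, and endothelin-2 (Edn2) is a short peptide that contracts smooth muscle. The follicle's granulosa layer has no vessels before ovulation and is invaded by them when the corpus luteum forms, and endothelin-2 made by granulosa cells has been tied to follicle rupture.

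The RefSeq table of promoters (GRCm38.p6) matched 6 of the 8 genes, and Epas1 and Angpt2 had no entry. The 250 bases before the start are shown for the 3 genes with a motif match under a peak at the start and for Vegfa, the best known HIF target of the set. The same 250 bases of Vegfc and of the upper Pgf start, also under a peak in every library, held none of the motifs and are not shown. Each is written 5′ to 3′ on the gene's strand, and capitals mark a match to a searched motif on either strand. The motifs were ACGTG (the HIF core), TGANTCA (AP-1), TGTGGT (RUNX), AAGGTCA (NR5A), TGACGTCA (the cAMP response element) and the palindromic site of the progesterone and glucocorticoid receptors. The Hif1a sequence is chr12:73907617-73907866 (plus strand), the Arnt sequence chr3:95434140-95434389 (plus), the Edn2 sequence chr4:120160956-120161205 (plus) and the Vegfa sequence chr17:46032378-46032627 (minus).
Hif1a: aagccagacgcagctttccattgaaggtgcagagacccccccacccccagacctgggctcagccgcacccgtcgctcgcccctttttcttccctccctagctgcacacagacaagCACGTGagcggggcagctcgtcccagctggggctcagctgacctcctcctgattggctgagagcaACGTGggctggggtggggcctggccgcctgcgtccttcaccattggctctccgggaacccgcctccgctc
Arnt: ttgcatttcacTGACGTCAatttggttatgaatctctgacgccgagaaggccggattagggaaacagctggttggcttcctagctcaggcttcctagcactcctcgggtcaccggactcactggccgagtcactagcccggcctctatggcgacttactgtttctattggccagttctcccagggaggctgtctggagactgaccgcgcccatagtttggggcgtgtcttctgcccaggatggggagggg
Edn2: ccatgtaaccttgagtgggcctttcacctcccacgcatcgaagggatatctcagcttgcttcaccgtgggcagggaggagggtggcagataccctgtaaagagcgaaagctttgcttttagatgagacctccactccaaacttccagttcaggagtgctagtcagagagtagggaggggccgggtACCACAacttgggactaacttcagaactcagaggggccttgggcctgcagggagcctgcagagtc
Vegfa: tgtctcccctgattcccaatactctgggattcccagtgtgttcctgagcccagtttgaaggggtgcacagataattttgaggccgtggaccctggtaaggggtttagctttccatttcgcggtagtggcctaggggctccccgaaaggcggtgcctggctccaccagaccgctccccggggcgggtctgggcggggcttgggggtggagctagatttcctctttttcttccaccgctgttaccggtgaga

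The Hif1a promoter held 3 matches to ACGTG, of which 2 overlap as both strands of the palindrome CACGTG. Of 32851 promoters of this length, 16.6% held ACGTG. The Arnt promoter held 1 TGACGTCA, which 1.55% of promoters held, and the Edn2 promoter held 1 TGTGGT, on the reverse strand as ACCACA, which 14.0% held. None of the 6 motifs was in the 250 bases shown for Vegfa. The 250 bases before its second start, at position 46025163, held 1 ACGTG and were not covered by a peak in any library. All 250 bases of each of these 4 promoters were covered by peaks in each of the 8 libraries. Each of the 6 genes with an annotated start had a start open in all 8 libraries, beside 42.0% of 26794 genes of the promoter table. That set is not limited to the 21631 protein-coding genes used elsewhere. A match is a description of letters and not of binding.

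The libraries held between 55654 (KO replicate 2) and 84313 (WT replicate 2) intervals, which covered between 29.85 and 43.91 Mb. The WT lists were the 2 longest of the 8. The lists hold no read counts, so the depth behind a peak is unknown. At the start of Pgr, the gene targeted in the knockout, the 2 KO libraries each had 2 intervals with a gap of 272 bp (KO replicate 1) and 394 bp (KO replicate 2), and the other 6 libraries had 1 unbroken interval. Of 9 granulosa markers between 5 and 7 had a peak at the start, or at either gene end where the table gives no start (as for Amh, Cdh5 and Gdf9), per library, with Inha and Nr5a2 at 0 in every library and Amh open in hCG replicate 2 alone. Of 8 endothelial markers between 2 and 3 did. Kdr was open in all 8 libraries, Cdh5 in all but KO replicate 2 and Cldn5 in all but the PMSG libraries, while Pecam1, Tek, Tie1, Emcn and Esam had none in any library. Of 6 leukocyte markers between 0 and 1 did (Cd68, in both hCG libraries), of 6 theca and stroma markers between 2 and 3, and of 4 oocyte markers 1 (Gdf9). The part of other cells in the values below was not tested, and in bulk cells a change of cell mix cannot be told apart from a change of accessibility per cell.

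**Figure D1:**
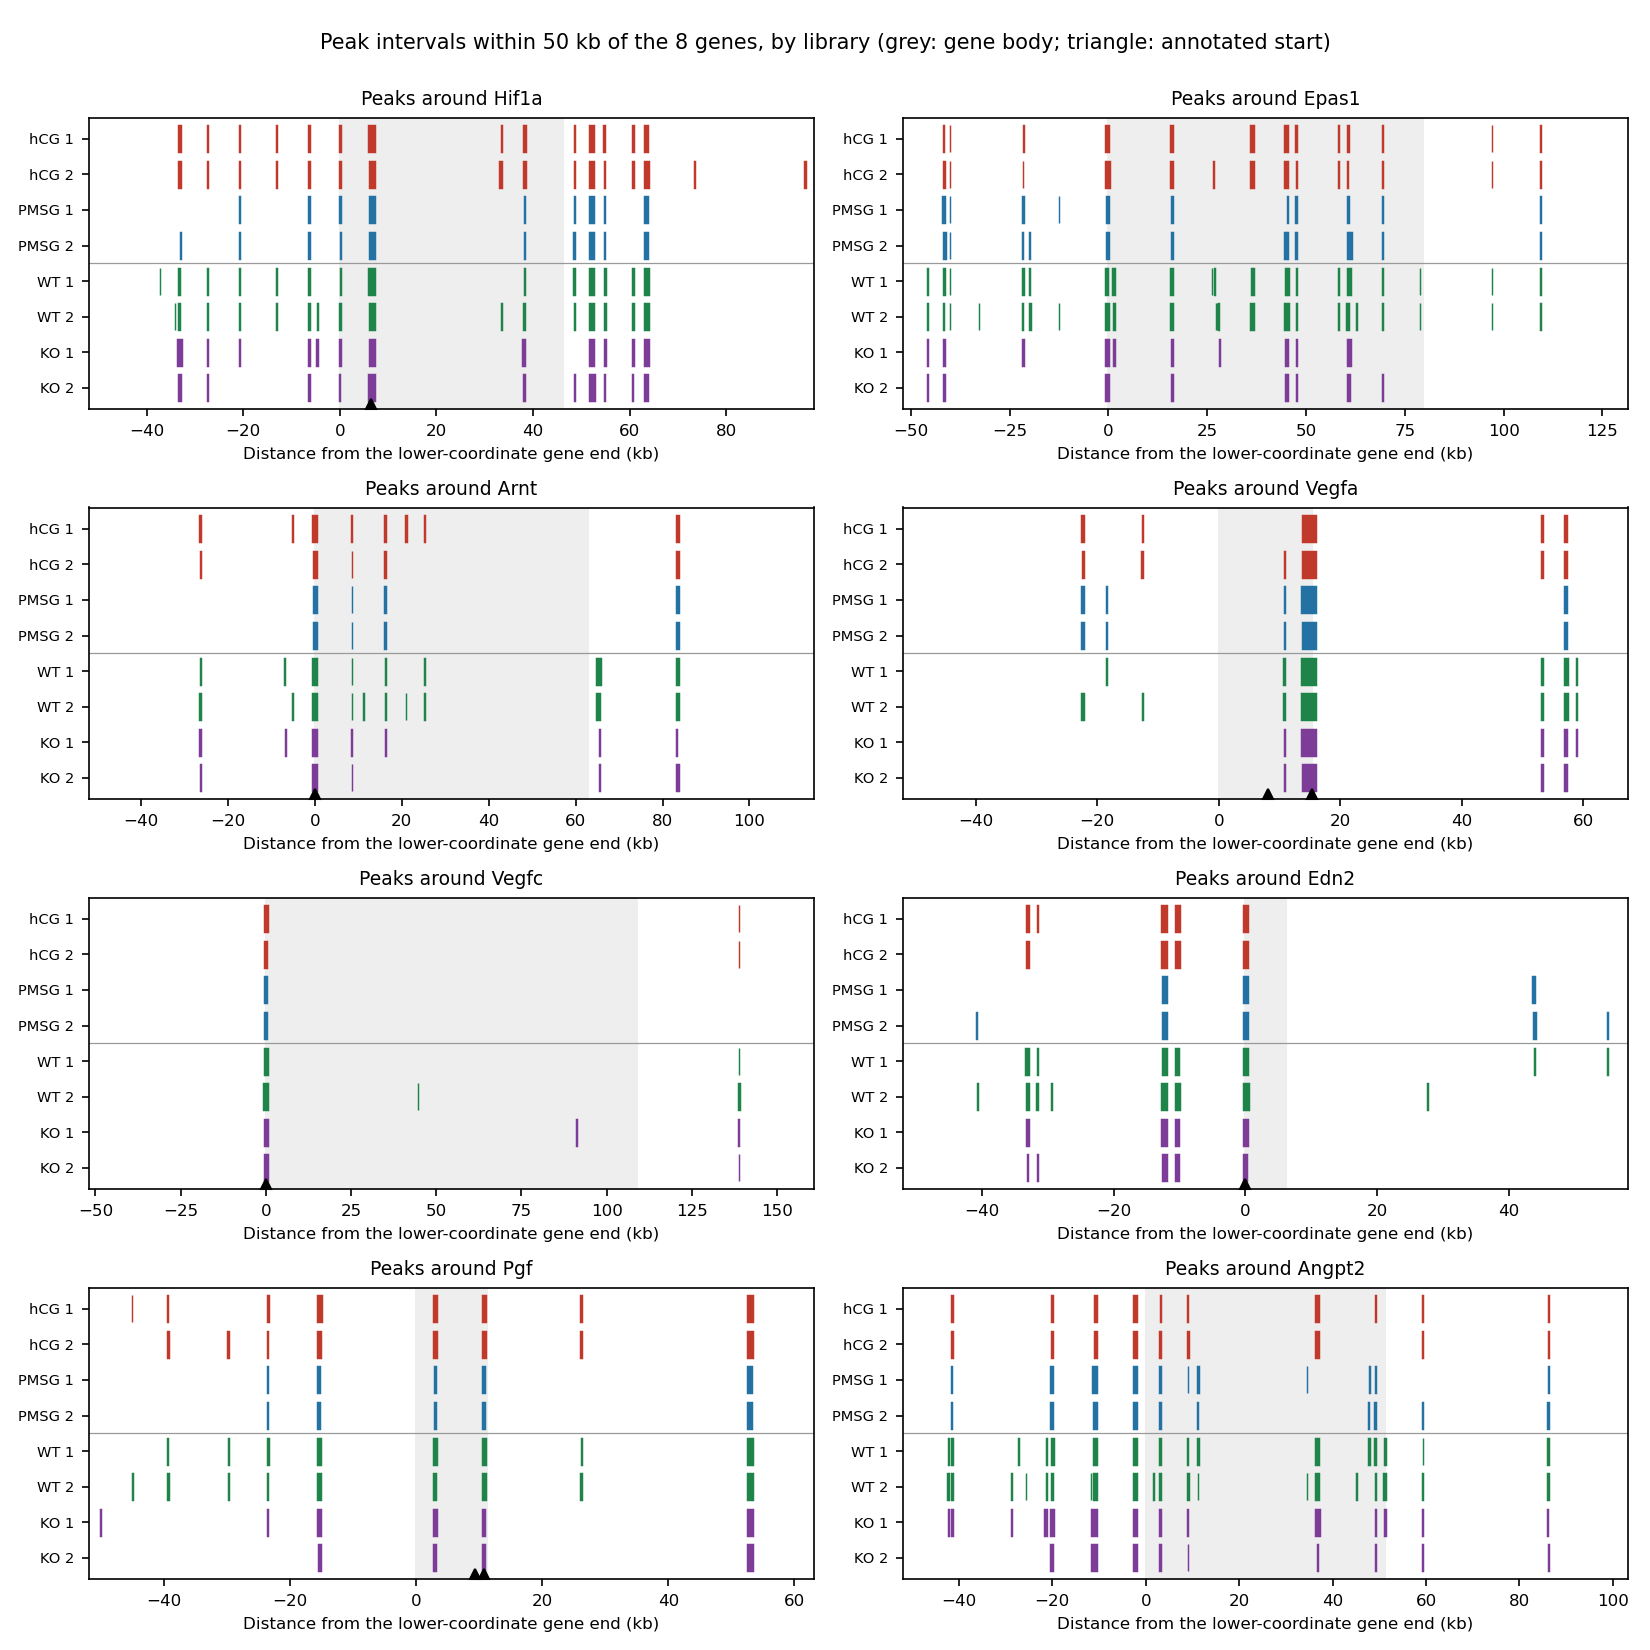
Peak intervals of the 8 libraries around each gene, by distance from the lower-coordinate gene end in kb (grey, gene body; triangle, annotated start; intervals drawn to scale with a minimum line width). Starts are open in every library except the lower of 2 starts of Vegfa and of Pgf, and most differences between libraries lie away from starts.

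The first comparison sets hCG against PMSG and addresses how chromatin differs after the stand-in for the LH surge. Regions present in both hCG libraries and absent from both PMSG libraries (hCG-only) were found at all 8 genes in the full lists, with 5 at Hif1a and 3 at Epas1. After trimming to equal list lengths Hif1a and Epas1 had 3 each and Vegfc none, and with a −log10 q of 20 or more Hif1a had 3, Epas1 4 and Vegfc none. The reverse, regions present in both PMSG and absent from both hCG libraries (PMSG-only), were found at Vegfa (1), Edn2 (1) and Angpt2 (2) in the full lists, and at Hif1a (1), Epas1 (2), Vegfa (1), Edn2 (1) and Angpt2 (4) in lists of equal length. Starts did not differ in this way, since none of these regions covered a member's start. In all, 17 of the 79 regions held by any LH library were hCG-only, which is 21.5% beside 17.6% of all such regions in the genome. The 4 PMSG-only regions were 5.06%, beside 10.3% in the genome. With each list trimmed to its 55654 best peaks by fold, 13 of 72 regions were hCG-only (18.1%, beside 15.3% in the genome) and 9 were PMSG-only (12.5%, beside 13.4%). Without PMSG replicate 1, 7 regions were PMSG-only, 1 of them at Epas1, where 1 was also PMSG-only without PMSG replicate 2. Without hCG replicate 2, Vegfa had 2 PMSG-only regions.

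**Figure D2:**
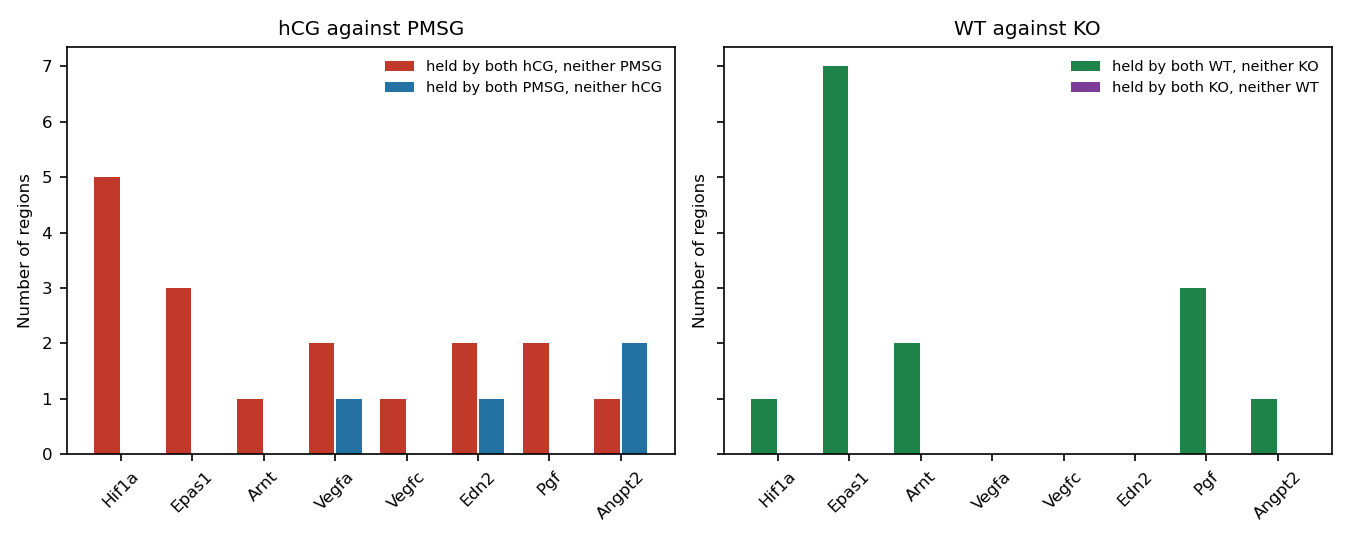
Number of regions per gene held by both libraries of one group and neither of the other (left, hCG against PMSG; right, WT against KO; all peaks of each list). Hif1a had the most hCG-only regions (5), Epas1 the most WT-only regions (7), and no KO-only region was found at any of the 8 genes.

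Hif1a (chr12:73901324-73947554) had 19 regions. In the order hCG 1, hCG 2, PMSG 1, PMSG 2, WT 1, WT 2, KO 1 and KO 2, 15, 16, 9, 10, 15, 16, 13 and 11 of them were held. Both hCG libraries were above both PMSG libraries, and both WT above both KO. At equal list lengths the counts were 10, 14, 9, 9, 8, 11, 12 and 11, so that hCG stayed above PMSG and WT was no longer above KO. The hCG-only region with the highest rank was chr12:73873787-73874128, 27.2 kb below the gene (at lower coordinates). Ranks are given as the percentile of the authors' fold within a list, where 100 is the strongest peak. It stood at 65.9 and 76.4 in hCG, at 55.7 and 79.3 in WT and at 73.6 and 47.0 in KO, with no peak in PMSG. All 6 libraries taken after hCG held it. A second, chr12:73888045-73888321, 13.0 kb below the gene, stood at 33.6 and 31.7 in hCG and 39.9 and 52.8 in WT, and had no peak in PMSG or KO. The other 3 hCG-only regions were weak, between 4.36 and 21.6 in hCG, and lay in the gene body, 14.3 kb above it and 49.9 kb above it, where the last covers a start of Syt16. That region reached into the window through the peak of hCG replicate 2 alone, and the peaks of hCG replicate 1, WT replicate 1 and KO replicate 1 in it lay past the limit. The calls in the body and 14.3 kb above the gene ended with lists of equal length.

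The Hif1a start (chr12:73907240-73908672), whose promoter letters are shown above, was open in all 8 libraries over 1366 and 1291 bp in hCG, 1238 and 1241 bp in PMSG, 1433 and 1367 bp in WT and 1367 and 1371 bp in KO. It was wider in both hCG libraries than in either PMSG library. Its rank was the other way round. Among regions held by all 4 LH libraries, where ranks are over the same regions in each list, it stood at 62.9 and 64.7 in hCG and at 77.1 and 78.0 in PMSG. The strongest region of the window by mean rank, chr12:73964337-73965324, covers the start of the neighbour Snapc1.

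Epas1 (chr17:86753864-86833410) had 26 regions, the most of the 8 genes. In the library order above, 13, 14, 11, 11, 19, 23, 10 and 8 were held. At equal list lengths the counts were 11, 10, 11, 10, 9, 12, 9 and 8, so that hCG was no longer above PMSG, nor both WT above both KO. The 3 hCG-only regions were chr17:86789621-86790654 and chr17:86811873-86812338 in the gene body and chr17:86850813-86851013, 17.4 kb above it. The first stood at 44.8 and 55.1 in hCG, the second at 19.96 and 40.1, and the third at 51.2 and 63.1. All 3 were also held by both WT libraries and by neither KO library. The region over the lower gene end (chr17:86752923-86754396) and the strongest region by mean rank (chr17:86769511-86770323, in the body) were held by all 8 libraries, the latter at percentiles between 80.5 and 95.6.

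Arnt (chr3:95434367-95497240), the shared partner of both HIF subunits, had 12 regions, and 8, 5, 4, 4, 9, 11, 7 and 5 were held in the library order above (7, 5, 4, 4, 5, 6, 7 and 5 at equal list lengths, where WT and KO overlapped). Its start (chr3:95433785-95434903) was the strongest region of the window by mean rank, though not in every library, and stood between percentiles 92.9 and 97.7 in all 8 libraries. The single hCG-only region, chr3:95407828-95408292, 26.1 kb below the gene, was the strongest hCG-only region of the 8 genes. It stood at 89.2 and 95.1 in hCG, at 90.3 and 98.2 in WT and at 94.6 and 84.6 in KO, and neither PMSG library had a peak there. Its width was 443 and 406 bp in hCG, 414 and 453 bp in WT and 437 and 404 bp in KO. Without hCG replicate 2, Arnt had 4 hCG-only regions.

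Vegfa (chr17:46016993-46032377), the main ligand for vessel growth, had 8 regions, and 5, 6, 5, 5, 6, 7, 5 and 4 were held in the library order above (5, 5, 4, 4, 3, 3, 4 and 4 at equal list lengths, where both KO were above both WT). Its start (chr17:46030579-46032950) was the widest region of the 8 genes. It was open over 2351 and 2341 bp in hCG, 2335 and 2323 bp in PMSG, 2372 and 2370 bp in WT and 2366 and 2306 bp in KO. The fold rank there was in the lower part of every list, at 18.8 and 17.7 in hCG, 19.7 and 17.5 in PMSG, 38.2 and 38.6 in WT and 21.5 and 45.2 in KO. The hCG and PMSG ranks overlapped. A second annotated start, at position 46025163, had no peak in any library.

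The hCG-only regions of Vegfa were chr17:46004242-46004490, 12.5 kb below the gene (38.6 and 54.6 in hCG, with a peak outside hCG in WT replicate 2 alone), and chr17:46069976-46070406, 37.6 kb above it. The latter stood at 18.5 and 15.7 in hCG, 34.0 and 40.5 in WT and 18.3 and 25.9 in KO. Vegfa is on the minus strand, so that regions above it lie upstream. Its PMSG-only region, chr17:45998474-45998652, 18.3 kb below the gene, stood at 27.1 and 44.5 in PMSG and was held by WT replicate 1 as well. The strongest region by mean rank was chr17:46073720-46074388, 41.3 kb above the gene, held by all 8 libraries.

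Pgf (chr12:85166637-85177785) had 10 regions, and 8, 8, 5, 5, 9, 10, 6 and 4 were held in the library order above. At equal list lengths the counts were 7, 8, 5, 5, 6, 8, 6 and 4. Both hCG libraries held more than both PMSG libraries at either length. At its start (chr12:85177017-85177644) the percentile among regions held by all 4 LH libraries was 79.1 and 74.1 in hCG and 54.1 and 58.6 in PMSG, and the peak was 583 and 576 bp wide in hCG and 512 and 556 bp in PMSG. Pgf was the only member whose start was both wider and higher in rank in both hCG libraries. Its 2 hCG-only regions were chr12:85127049-85127426, inside the neighbour Dlst and 39.2 kb below Pgf (20.5 and 72.3 in hCG), and chr12:85192598-85192933, 14.8 kb above it (34.8 and 71.2). Both were also held by both WT libraries and neither KO library. A second start at position 85175982 had no peak in any library, and the strongest region of the window, chr12:85219069-85220147, covers the start of Eif2b2.

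Vegfc (chr8:54077532-54186454) had the fewest regions, 4, and 2, 2, 1, 1, 2, 3, 3 and 2 were held in the library order above (1, 2, 1, 1, 1, 2, 3 and 2 at equal list lengths). In PMSG the start (chr8:54076844-54078147) was the only open region of the window. The start stood at 79.1 and 75.2 in hCG and 73.9 and 82.0 in PMSG, which overlap. The hCG-only region chr8:54216203-54216564, 29.7 kb above the gene, stood at 15.2 and 14.8 in hCG, 23.4 and 61.5 in WT and 45.6 and 11.1 in KO. It was not called with lists of equal length or with a minimum −log10 q of 20.

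Angpt2 (chr8:18690263-18741562) lies inside the larger gene Mcph1 and had 21 regions, of which 10, 9, 11, 10, 16, 19, 14 and 9 were held in the library order above. At equal list lengths the counts were 7, 7, 10, 9, 8, 8, 9 and 9, with both PMSG above both hCG and both KO above both WT. It was the member with the most PMSG-only regions. These were chr8:18701256-18701571 (60.6 and 41.0 in PMSG, 31.2 and 10.7 in WT, no peak in KO) and chr8:18737930-18738357, at the foot of the lists (3.07 and 3.03), both in the body. The latter was not called with lists of equal length, where Angpt2 had 4 PMSG-only regions, 3 of them held by hCG libraries in the full lists. Its hCG-only region, chr8:18726421-18727485, also in the body, stood at 31.4 and 25.1 in hCG, 43.2 and 38.7 in WT and 35.3 and 18.2 in KO. Without PMSG replicate 1, or without PMSG replicate 2, a second region was hCG-only.

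No LH library had a peak at either end of Angpt2. The region at the upper end (chr8:18741124-18741694) was held by both WT libraries and KO replicate 1, at percentiles 3.09, 12.2 and 2.63. The strongest region of the window by mean rank was chr8:18669707-18670627, 19.6 kb below the gene and held by all 8 libraries. Of the 6 Angpt2 regions held by all 4 LH libraries, 4 ranked higher in both PMSG libraries and 2 in both hCG libraries. A body region chosen after its values were seen, chr8:18693032-18693521, stood at 4.10 and 5.83 in hCG and at 33.6 and 30.5 in PMSG among regions held by all 4. Its width was 236 and 281 bp in hCG and 458 and 467 bp in PMSG.

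Edn2 (chr4:120161206-120167360) had 10 regions, and 5, 4, 3, 5, 7, 8, 4 and 5 were held in the library order above (3, 4, 3, 5, 3, 5, 4 and 5 at equal list lengths), so that the hCG and PMSG counts overlapped. Its start (chr4:120160801-120161693) was the strongest region of the window by mean rank. Among regions held by all 4 LH libraries it stood at 62.3 and 49.1 in hCG and 75.8 and 80.4 in PMSG, and its width was 851 and 862 bp in hCG and 780 and 782 bp in PMSG. As at Hif1a, the start was wider in both hCG libraries and ranked higher in both PMSG libraries. The hCG-only regions were chr4:120127821-120128361, 32.8 kb below the gene and inside Hivep3 (31.0 and 28.9 in hCG), and chr4:120150478-120151236, 9.97 kb below it (14.3 and 13.1). Both WT and both KO libraries also held both of these. The call at 9.97 kb ended with lists of equal length. The PMSG-only region chr4:120204786-120205308, 37.4 kb above the gene, stood at 42.7 and 48.2 in PMSG and 13.6 in WT replicate 1. Without PMSG replicate 1, Edn2 had 3 PMSG-only regions.

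**Figure D3:**
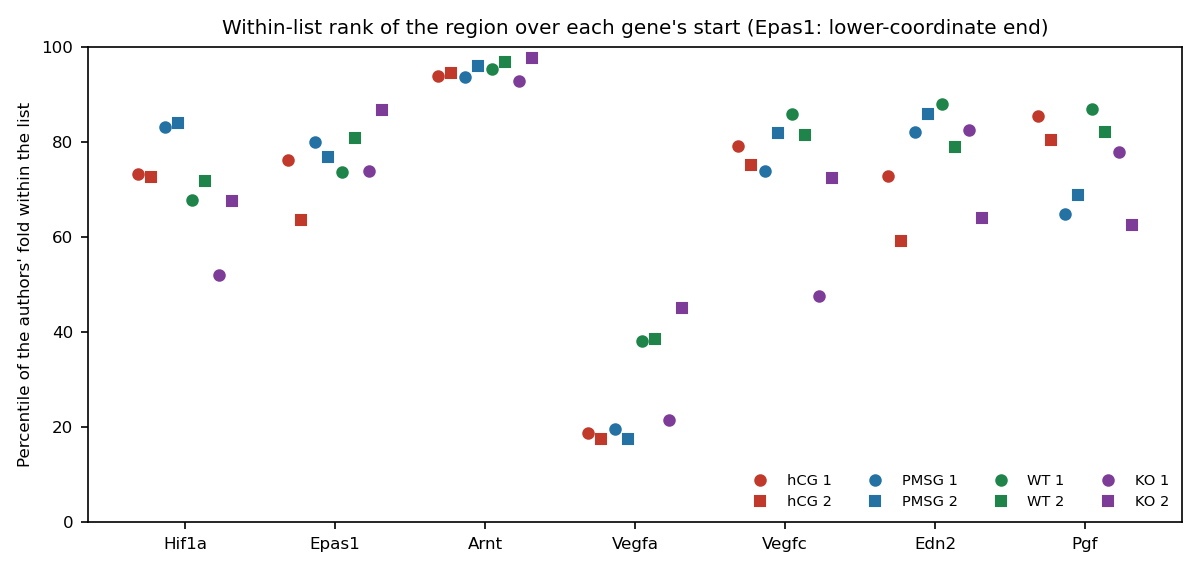
Percentile of the authors' fold within each list (vertical axis, 0 to 100) for the region over the start of 6 genes and over the lower gene end of Epas1, by library (colour, group; circle, replicate 1; square, replicate 2). The Arnt start lies above 92 in every library, the Vegfa start lies lowest, and for Pgf both hCG libraries lie above both PMSG libraries.

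Of the 40 member regions held by all 4 LH libraries, 21 ranked higher in both PMSG libraries (52.5%, beside 40.2% in the genome) and 10 in both hCG libraries (25.0%, beside 32.5%). In width, 21 were wider in both hCG libraries (52.5%, beside 64.2%) and 11 in both PMSG libraries (27.5%, beside 11.8%). By count more regions were wider in hCG. Set beside the genome, both rank and width were more often higher in PMSG and less often in hCG, which was not tested. In lists cut to equal length, 17 of 32 shared regions ranked higher in both PMSG (53.1%, beside 40.4%) and 8 in both hCG libraries (25.0%, beside 31.9%), while 19 were wider in both hCG (59.4%, beside 66.3%) and 6 in both PMSG libraries (18.8%, beside 10%). The hCG lists had wider peaks in general, with median widths of 488 and 502 bp against 422 and 412 bp in PMSG. At Angpt2 and Epas1, 4 regions each were wider in both PMSG libraries. The remaining 3 were at Hif1a, and Arnt, Vegfa, Vegfc, Edn2 and Pgf had none.

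The hCG-only regions of the 8 genes had a median percentile of 30.0, between 6.02 and 92.2 as means of the 2 hCG libraries, beside a median of 38.0 for all hCG-only regions. Of the 17, 13 lay in the flanks and 4 touched a gene body. The 4 PMSG-only regions had a median of 40.6, beside 34.2 for all PMSG-only regions.

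The second comparison sets WT against KO after hCG and addresses the part of the progesterone receptor. Regions held by both WT libraries and neither KO library (WT-only) were found at Epas1 (7), Pgf (3), Arnt (2), Hif1a (1) and Angpt2 (1). Vegfa, Vegfc and Edn2 had none. No region was held by both KO libraries and neither WT library. The 14 WT-only regions were 12.8% of the 109 regions held by any PR library, beside 12.1% in the genome, and KO-only regions were 0.0802% in the genome. With lists of equal length, 5 of 75 regions were WT-only (6.67%, beside 4.26%) and 2 were KO-only (2.67%, beside 4.15%). Without WT replicate 1, 36 regions were WT-only, without WT replicate 2, 22, and without KO replicate 1, 24, and without KO replicate 2, 2 were KO-only, at Epas1 and Vegfc. Of the genes with none, Vegfa had 2, Vegfc 1 and Edn2 3 WT-only regions without WT replicate 1. Without WT replicate 2, Vegfa had 1 and Edn2 2, and Vegfa had 1 without KO replicate 1 and Edn2 1 without KO replicate 2.

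Epas1, which encodes HIF-2α, had 7 of the 14 WT-only regions. The regions chr17:86789621-86790654, chr17:86811873-86812338 and chr17:86850813-86851013, were the 3 hCG-only regions named above. In WT they stood at 44.5 and 46.3, at 25.3 and 36.7, and at 47.9 and 41.1. The first was 899 and 1034 bp wide in hCG and 771 and 905 bp in WT. Neither PMSG nor KO libraries had a peak in any of the 3. HIF-2α is also known from endothelial cells, and of the 8 endothelial markers 3 were open in each hCG and each WT library, 2 in each PMSG library, 3 in KO replicate 1 and 2 in KO replicate 2. Their part in these regions was not tested.

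A further pair was held in PMSG as well. The region chr17:86862986-86863353, 29.6 kb above the gene, stood at 75.0 and 76.4 in hCG, 21.1 and 23.8 in PMSG and 62.3 and 36.5 in WT. The region chr17:86713689-86713910, 39.95 kb below the gene, stood at 25.2 and 31.5 in hCG, 19.9 and 14.3 in PMSG and 25.4 and 28.3 in WT. Both ranked higher in both hCG than in both PMSG libraries among regions held by all 4, and neither KO library had a peak in either. The remaining 2 WT-only regions, chr17:86733877-86734313 and chr17:86832698-86832823, had percentiles between 8.11 and 36.1 in the libraries that held them, which for the former included PMSG replicate 2. They are named to complete the 7, after their values were seen.

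With lists of equal length, 3 WT-only regions were called at Epas1 (the regions at 86789621, 86850813 and 86862986) and 1 KO-only region. Leaving out 1 PR library gave between 8 and 13, with 13 without WT replicate 1. The KO-only region of the equal lists, chr17:86801144-86801572, was held by all 8 full lists, at 6.14 and 4.43 in hCG, 31.1 and 39.5 in PMSG, 4.90 and 1.32 in WT and 17.6 and 21.2 in KO. It was low in all 4 Pgr-intact libraries taken after hCG. A neighbour in the body, chr17:86798299-86799495, stood at 17.5 and 19.8 in hCG, 11.8 and 4.76 in PMSG, 50.2 and 56.7 in WT and 8.41 and 31.0 in KO. Its width was 1108 and 1123 bp in hCG, 354 and 562 bp in PMSG, 921 and 1121 bp in WT and 784 and 565 bp in KO, with both hCG above both PMSG and both WT above both KO. These 2 regions were chosen after their values were seen.

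**Figure D4:**
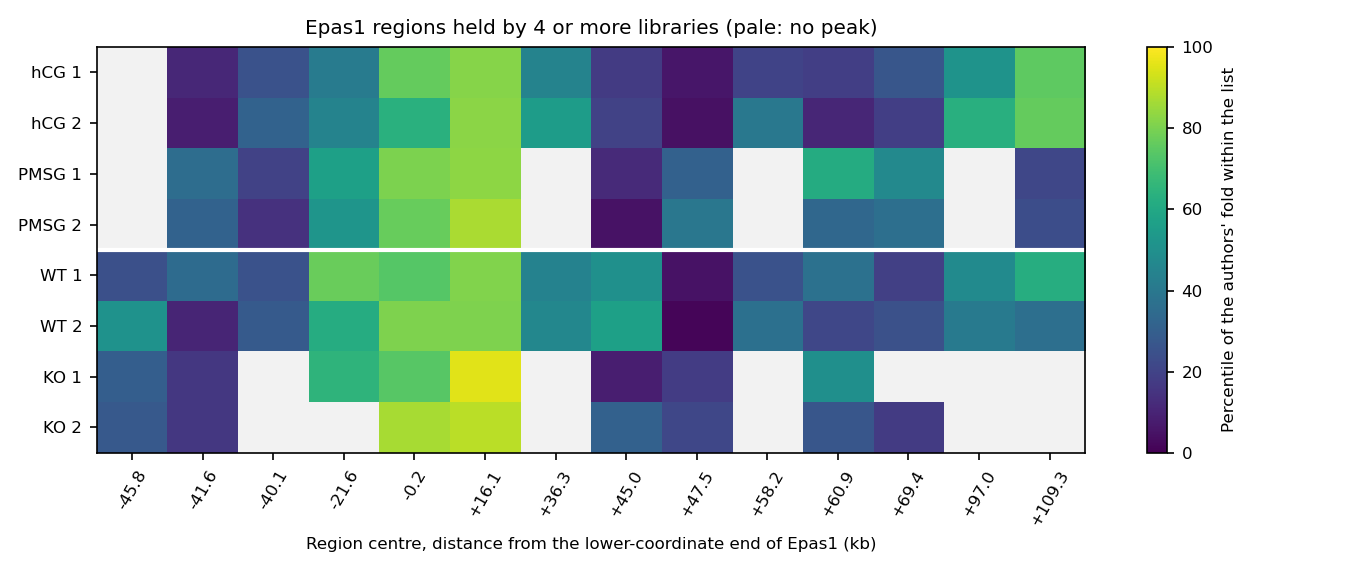
Within-list percentile of the authors' fold (colour, 0 to 100; pale, no peak) for the 14 Epas1 regions held by 4 or more libraries, by distance of the region's centre from the lower gene end in kb. The columns at +36.3, +58.2 and +97.0 kb are filled in both hCG and both WT rows and empty in both PMSG and both KO rows.

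At the lower end of Epas1 itself the shared region did not follow this order. Among regions held by all 4 PR libraries it stood at 58.1 and 67.6 in WT and at 69.0 and 84.9 in KO. The strongest body region by mean rank, chr17:86769511-86770323, stood at 69.7 and 67.2 in WT and 94.7 and 88.4 in KO. It was 800 and 806 bp wide in WT and 598 and 589 bp in KO. Of the 7 Epas1 regions held by all 4 PR libraries, 4 ranked higher in both KO libraries and 1 in both WT libraries.

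For Hif1a the WT-only region was chr12:73888045-73888321, given above, which was also hCG-only. For Arnt they were chr3:95459443-95459722 in the body (23.8 and 47.0 in WT and 15.0 in hCG replicate 1) and chr3:95499113-95499331 at the start of the neighbour Ctsk (26.6 and 31.7 in WT and no peak elsewhere). Neither Arnt region was called with lists of equal length, where Arnt had no WT-only and 1 KO-only region (chr3:95499655-95500007). In the full lists both WT libraries held the region around it as well, at 16.5 and 21.1, and the KO libraries stood at 10 and 6.18. Without WT replicate 1, Arnt had 5 and Hif1a 3 WT-only regions, and Hif1a had 2 without any one of the other 3 PR libraries.

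For Pgf the 2 hCG-only regions were also WT-only, at 24.7 and 53.5 in WT (85127049) and at 44.0 and 62.1 (85192598). The third, chr12:85136609-85136934 inside Rps6kl1, was weak at 5.92 and 16.3 in WT. With lists of equal length 1 remained called, the region at 85192598. For Angpt2 the WT-only region was the PMSG-only region chr8:18701256-18701571, which was not called with lists of equal length. Without WT replicate 1, or without KO replicate 1, Angpt2 had 5 WT-only regions, and without WT replicate 2 it had 3.

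Starts were held by all 4 PR libraries at Hif1a, Arnt, Vegfa, Vegfc, Edn2 and Pgf. At the Vegfc start the percentile among shared regions was 77.1 and 68.7 in WT and 39.4 and 68.6 in KO, so that WT was above KO by a narrow margin in replicate 2 of each. At Edn2 the start was 797 and 884 bp wide in WT and 676 and 627 bp in KO, and its shared percentile, 80.4 and 64.8 in WT and 79.0 and 59.1 in KO, overlapped.

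Of the 45 member regions held by all 4 PR libraries, 5 ranked higher in both WT libraries (11.1%, beside 13.1% in the genome) and 7 in both KO libraries (15.6%, beside 15.4%). In width 13 were higher in both WT (28.9%, beside 34.8%) and 6 in both KO (13.3%, beside 5.89%). Leaving out any one of the 4 PR libraries gave between 12 and 16 ranked higher in WT and between 12 and 24 in KO. Without WT replicate 2, 22 were wider in WT and 12 in KO, without KO replicate 1, 33 were wider in WT, and without KO replicate 2, 21 were wider in KO. In lists cut to equal length, 3 of 31 ranked higher in both WT (9.68%, beside 13.2%) and 5 in both KO libraries (16.1%, beside 15.6%), while 7 were wider in both WT (22.6%, beside 34.8%) and 6 in both KO libraries (19.4%, beside 6.24%). The WT-only regions of the 8 genes had a median percentile of 33.2, between 10.1 and 53.0 as means of the 2 WT libraries, beside 28.1 for all WT-only regions. Of the 14, 5 touched a gene body.

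The covered share puts each window on 1 scale per library. It is the peak-covered length in the window in ppm of the list's whole covered length. For Pgf it was 103 and 105 ppm in hCG and 74.9 and 83.8 ppm in PMSG, a ratio of means of 1.308. The 2 groups did not overlap. For Angpt2 it was 119.8 and 117 ppm in hCG and 162 and 148 ppm in PMSG, a ratio of 0.764, and PMSG was higher in both libraries. For Vegfa it was 104 and 107 ppm in hCG and 118 and 121 ppm in PMSG, a ratio of 0.886.

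Over 15360 genes the hCG over PMSG ratio had a median of 1.004 and lay between 0.72 (5th percentile) and 1.447 (95th), so each of these 3 ratios lay inside the genome's range. In hCG against PMSG, 5 of 8 genes did not overlap, with hCG higher for Hif1a, Arnt and Pgf and PMSG higher for Vegfa and Angpt2. In the genome 34.7% of genes were higher in both hCG and 38.8% in both PMSG libraries. The exact two-sided permutation test over the 3 splits of 4 libraries gave p = 0.333 for each of the 5, which is the smallest p it allows. In lists of equal length 4 of 8 genes did not overlap, and the share over all genes was not counted there. Hif1a no longer separated there, at 147 and 193 ppm in hCG and 167 and 166 ppm in PMSG (ratio 1.02). Without PMSG replicate 2 all 8 genes separated, with 1 library on that side, which eases separation, and without a share over all genes to set beside it.

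For Epas1 the covered share was 191 and 212 ppm in WT and 140.0 and 125 ppm in KO, a ratio of means of 1.518. Both WT libraries were above both KO libraries. The ratio over 15365 genes had a median of 0.967 and a 95th percentile of 1.288, so that Epas1 lay above the 95th percentile. The ratio in lists of equal length was 1.233, below the 95th percentile of 1.3. In WT against KO, 6 of 8 genes did not overlap, with WT higher for Epas1, Arnt, Edn2 and Pgf and KO higher for Hif1a (ratio 0.85) and Vegfc. In the genome 17.2% of genes were higher in both WT and 36.1% in both KO libraries. The exact two-sided permutation p was 0.333 for each of the 6. In lists of equal length 3 of 8 genes did not overlap, Epas1 and Pgf with WT higher and Hif1a with KO higher. The share over all genes was not counted at equal length. Arnt overlapped there, at 71.1 and 81.1 ppm in WT and 75.3 and 76.8 ppm in KO, as did Edn2, at 59.1 and 90.0 ppm in WT and 67.7 and 73.6 ppm in KO. Vegfc no longer separated either.

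**Figure D5:**
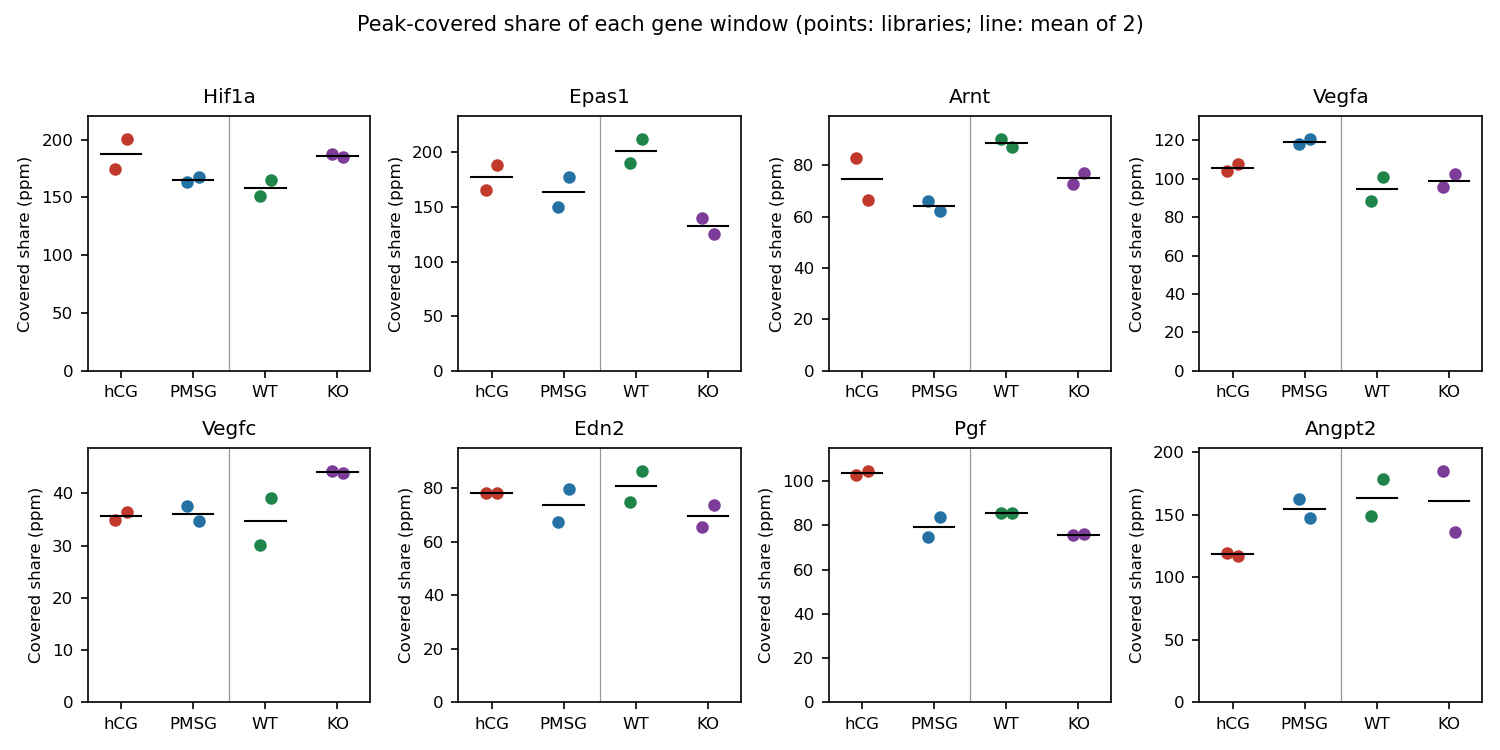
Peak-covered share of each gene window in ppm of the library's covered bases (points, libraries; lines, means of 2). Epas1 is lowest in the KO libraries (140.0 and 125 ppm), Pgf highest in the hCG libraries and Angpt2 lowest in the hCG libraries.

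The order of the 4 groups differed between genes. The LH and PR experiments differ in strain and perhaps in processing, which cannot be told apart from the groups across them. For Epas1 the order was WT (201 ± 15.2 ppm), hCG (177 ± 16.3), PMSG (164 ± 19.7) and KO (133 ± 10.3; all SD, n = 2), and of these neighbours hCG and PMSG overlapped. For Pgf it was hCG (104 ± 1.44), WT (85.6 ± 0.0166), PMSG (79.3 ± 6.32) and KO (75.8 ± 0.429), and PMSG overlapped with KO. For Angpt2 it was WT (164 ± 20.7), KO (161 ± 34.6), PMSG (155 ± 10.3) and hCG (118 ± 1.92), and WT, KO and PMSG overlapped.

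For Hif1a the order was hCG (188 ± 18.1), KO (186 ± 1.88), PMSG (165 ± 3.41) and WT (158 ± 9.99), with hCG and KO overlapping and PMSG and WT overlapping. For Arnt it was WT (88.5 ± 2.18), KO (74.8 ± 2.88), hCG (74.6 ± 11.7) and PMSG (64.1 ± 2.81), with KO and hCG overlapping. For Vegfa it was PMSG (119 ± 1.82), hCG (106 ± 2.39), KO (98.8 ± 4.75) and WT (94.5 ± 8.57), with KO and WT overlapping. For Edn2 it was WT (80.7 ± 8.28), hCG (78.2 ± 0.133), PMSG (73.6 ± 8.69) and KO (69.5 ± 5.79), with overlap at each step. For Vegfc it was KO (44.1 ± 0.373), PMSG (36.1 ± 2.08), hCG (35.6 ± 1.05) and WT (34.7 ± 6.35), with PMSG, hCG and WT overlapping.

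Set side by side over the 2 experiments, which share no library, 14 of the 17 hCG-only regions of the 8 genes were held by both WT libraries (82.4%, beside 78.5% of all hCG-only regions). Both KO libraries held 8 of the 17 (47.1%, beside 41.5%) and neither KO library held 8 (47.1%, beside 34.2%). In all, 6 regions were both hCG-only and WT-only, 3 at Epas1, 2 at Pgf and 1 at Hif1a. They were 35.3% of the 17 hCG-only regions, beside 16.6% of all hCG-only regions, and 42.9% of the 14 WT-only regions, beside 21.5% of all WT-only regions. By contrast the hCG-only regions of Arnt, Edn2, Vegfc and Angpt2 were held by both WT and both KO libraries. Neither KO library held any of the 4 PMSG-only regions, beside 59.9% of all PMSG-only regions, and both WT libraries held 1 (25%, beside 43.0%).

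Other genes of the same pathways were read by counts, to be set beside 17.6% hCG-only, 10.3% PMSG-only, 12.1% WT-only and 0.0802% KO-only regions in the genome. Around 8 further HIF pathway genes (Hif3a, Arnt2, the prolyl hydroxylases Egln1, Egln2 and Egln3, Vhl, Hif1an and Cited2), 15 regions were hCG-only (20.5% of those held by any LH library), 5 PMSG-only (6.85%), 11 WT-only (13.9% of those held by any PR library) and 0 KO-only. Arnt2, a relative of Arnt, held 8 of the 15, and Egln1 held 4. Around 7 VEGF ligands and receptors the counts were 9 (14.3%), 7 (11.1%), 10 (13.5%) and 0. Nrp1, a co-receptor, had 2 PMSG-only and no hCG-only regions, and Flt1, a VEGF receptor, had 3 hCG-only and 3 WT-only regions.

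Around 5 angiopoietin genes and receptors the counts were 8 hCG-only (21.6%), 5 PMSG-only (13.5%), 10 WT-only (22.7%) and 0 KO-only. Angpt4 held 4, 3 and 5 of these. Around 6 endothelin genes they were 11 (17.2%), 3 (4.69%), 5 (6.85%) and 0, with 6 hCG-only regions at Ece1, an enzyme that cleaves the endothelin precursor. Around 10 HIF targets of glycolysis and hypoxia (Slc2a1, Ldha, Pgk1, Pdk1, Bnip3, Adm, Car9, Ankrd37, Ndrg1 and Ero1a) they were 18 (19.8%), 6 (6.59%), 9 (10.2%) and 0. Bnip3 had 4 hCG-only regions, and Ldha and Ankrd37 had none. In lists of equal length, and in the order of the 5 lists above, hCG-only counts were 10, 8, 6, 7 and 15, PMSG-only counts 8, 7, 6, 6 and 10, WT-only counts 2, 2, 5, 3 and 3, and KO-only counts 3, 1, 0, 3 and 7. In the genome at equal length, 15.3% of regions were hCG-only, 13.4% PMSG-only, 4.26% WT-only and 4.15% KO-only. Percentages of the 5 lists were not computed there. By count, KO-only regions outnumbered WT-only regions for the HIF pathway and the HIF targets and equalled them for the endothelins. The excess of WT-only over KO-only regions in the full lists of these 3 sets was thus not seen at equal length. In the genome these 2 shares also drew near each other, from 12.1% and 0.0802% in the full lists.

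For each member the gene whose covered share was most like it over the 8 libraries was Ifi27 for Hif1a (Pearson r = 0.974), Drg2 for Epas1 (0.965), Slfn8 for Arnt (0.957), Sgk1 for Vegfa (0.977), Tbc1d10c for Vegfc (0.974), Lonp2 for Edn2 (0.9502), Gm42337 for Pgf (0.984) and Pds5b for Angpt2 (0.957). Each is the best of between 15354 and 15371 genes, over 8 libraries that share strain within groups and differ in list length, and is given as a description.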

How the data were processed

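The members and lists were chosen with earlier results of these data known. The data are 8 ATAC-seq peak lists, 1 per library, so peaks were called on each library separately. The submitters' processing notes name Bowtie2, MACS2 and mm10, without versions or settings. A shift of reads for the Tn5 offset is not given in the sources used here. In the deposited lists column 7 is read as a fold enrichment (a linear ratio) over the caller's background and columns 8 and 9 as −log10 of a p-value and a q-value, from the narrowPeak layout. No list held a −log10 q under 10. These values are the authors' and were used only to rank or filter peaks within a list. Names in the PR lists mention filtering and marked duplicates, and those in the LH lists do not.

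Only chromosomes 1 to 19 and X were kept (between 10 and 19 intervals per list were left out), summits of 1 interval were collapsed, and intervals sharing 1 bp or more over the 8 lists were merged. Genes came from a RefSeq table of GRCm38.p6 with 21631 protein-coding genes, which gives no exons. Groups of 2 cannot give an exact permutation p under 0.333, and no region was tested singly. The labels call the 2 libraries per condition biological replicates.

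The text names, per gene, the region over the start, the one with the best mean rank and up to 5 group-only regions per direction, and the 1 gene most alike outside 200 kb with 5 or more regions. Alternatives were a 10 kb flank, a −log10 q of 20 or more, equal list lengths, the 20000 best peaks, 50% of a region covered, merging within an experiment and leaving out each library. The code for the calls was run on simulated lists with planted regions and no missed peaks. This checks the code alone, and not calls that arise from missed peaks. Python 3.11.15, pandas 2.3.3, numpy 2.4.6 and matplotlib 3.10.9 were used.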

Additional observations from a re-analysis of the deposited data

How the results depend on the processing

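Merging within each experiment changed no count by over 1.5 times. The counts of regions at the 8 genes that did move are given as full value first. With a 10 kb flank, hCG-only regions went from 17 to 5, PMSG-only from 4 to 2 and WT-only from 14 to 6, regions ranked higher in hCG from 10 to 6, in PMSG from 21 to 10 and in KO from 7 to 4, and regions wider in hCG from 21 to 13, in PMSG from 11 to 5 and in KO from 6 to 3. With −log10 q of 20 or more, PMSG-only regions were 7 and those ranked higher in WT were 3 of 5. With equal list lengths, PMSG-only regions were 9, WT-only 5 and KO-only 2, those ranked higher in WT 3, those wider in PMSG 6 and in WT 7, and genes not overlapping between WT and KO 3 of 6. With the 20000 best peaks, hCG-only regions were 4, PMSG-only 2 and WT-only 0, those ranked higher in hCG 1, PMSG 5, WT 0 and KO 2, and those wider in hCG 6, PMSG 2, WT 1 and KO 2. With 50% of a region covered, those ranked higher in PMSG were 11, in WT 3 and in KO 4, and those wider in PMSG 6. A narrower window and shorter lists leave fewer regions to call, and for the other moves the cause was not tested. Among these settings, shares over all regions were counted for equal list lengths alone, so the other counts have no genome share beside them. Peak width belongs to the rule for these genes, and its alternatives were chosen after seeing the data.

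Leaving out 1 library, which leaves 1 in its group and so eases the call, gave between 18 and 21 hCG-only, 5 and 7 PMSG-only, 17 and 36 WT-only and 0 and 2 KO-only regions. Regions ranked higher were between 11 and 13 (hCG), 22 and 27 (PMSG), 12 and 16 (WT) and 12 and 24 (KO), and wider regions between 22 and 25 (hCG), 12 and 14 (PMSG), 16 and 33 (WT) and 6 and 21 (KO). Genes not overlapping were between 5 and 8 (hCG and PMSG) and 6 and 8 (WT and KO). With the replicate number as a block, 6 genes (hCG and PMSG) and 7 genes (WT and KO) had both pairs in 1 direction, against 5 and 6 without it. This is a looser criterion, since groups that do not overlap always meet it. Shares over all genes or regions were not counted for it or with a library left out. Same-numbered libraries did not deviate together (correlations of 0.036 and -0.019 over 15371 genes). With 2 libraries per group this cannot show whether the numbers mark a shared day or litter, which the labels do not state. Of the 32 counts per gene and direction, 12 moved with equal list lengths and 13 with the 20000 best peaks. No read depth is known, so a missing peak is not shown to be closed chromatin.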
